A study of Mus musculus with 2 samples.

Results

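The 7 mature microRNAs described here are best known from neurons and neural progenitors. They are mmu-miR-9-5p, mmu-miR-9-3p, mmu-miR-124-3p, mmu-miR-128-3p, mmu-miR-7a-5p, mmu-miR-7a-1-3p and mmu-miR-218-5p (the prefix for mouse is left out below), taken by name from the 1909 mature mouse microRNAs listed for each library, and their levels were read in vascular smooth muscle cells, which are not neural. Thoracic aortas of male mice, 10 to 12 weeks old, gave the cells, which were cultured in DMEM/F-12, to which fetal bovine serum (10%) and antibiotics were added, before total RNA was taken for small RNA sequencing. In the db/db mouse (labelled type 2 diabetic, background BKS.Cg-m+/+Leprdb/J) both copies of the leptin receptor gene Lepr are mutant, and the db/+ mouse (labelled control, Lepr+/-) carries 1 mutant copy. There were 2 libraries, 1 per group, so every difference below is between these 2 libraries and none between genotypes could be tested. The number of animals behind each culture is not stated in the labels.

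A microRNA is cut from a hairpin precursor. One arm is usually loaded into an Argonaute protein and pairs with messenger RNAs through its seed, bases 2 to 8, while the other arm (the passenger strand) is mostly degraded. In the nervous system, miR-9 acts in progenitors, where it regulates the switch from dividing to differentiating, miR-124 is the abundant microRNA of mature neurons, and miR-128 is enriched in neurons and dampens their excitability. The miR-7 family is known from brain and neuroendocrine cells, and miR-218 from motor neurons.

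Of the 7, RefSeq (GRCm38.p6) gave a mature sequence for 6. They are shown, with the seed in capitals, because each has a different seed, so the 6 make 6 seed groups with 1 member each:
miR-9-5p: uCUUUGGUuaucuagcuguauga
miR-9-3p: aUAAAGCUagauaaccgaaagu
miR-128-3p: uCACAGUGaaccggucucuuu
miR-7a-5p: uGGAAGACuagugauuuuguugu
miR-7a-1-3p: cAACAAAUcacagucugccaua
miR-218-5p: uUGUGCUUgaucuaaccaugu

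Both arms of miR-9 come from the same 3 hairpins. These are printed with the arms in capitals, because the arms have the same letters in all 3 and a count of either arm cannot be assigned to a hairpin. Mir9-1 lies at chr3:88215598-88215686 (plus strand), in an intron of Gm3764, a long intergenic non-coding RNA (lincRNA) gene. Mir9-2 lies at chr13:83738814-83738885 (plus strand) and overlaps an exon of the lincRNA gene C130071C03Rik, and Mir9-3 lies at chr7:79505264-79505353 (plus strand), in an intron of Mir9-3hg:
Mir9-1: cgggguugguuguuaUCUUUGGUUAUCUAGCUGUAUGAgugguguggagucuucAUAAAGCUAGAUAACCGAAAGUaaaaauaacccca
Mir9-2: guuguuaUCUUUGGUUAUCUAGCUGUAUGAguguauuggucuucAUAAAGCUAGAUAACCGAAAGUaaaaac
Mir9-3: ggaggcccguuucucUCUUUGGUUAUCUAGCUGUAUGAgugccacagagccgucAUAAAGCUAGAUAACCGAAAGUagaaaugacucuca

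The miR-7a hairpins differ in a way the counts can read. Mir7-1 (chr13:58392779-58392886, minus strand) lies in an intron of Hnrnpk, which encodes a widely expressed RNA-binding protein, and Mir7-2 (chr7:78888277-78888373, plus strand) lies in no annotated gene on its strand. Both give miR-7a-5p, but their passenger arms differ at 3 positions counted from the 5′ end (A7G, A10C and U21C, Mir7-1 base first), the first of them inside the seed. The hairpins are printed with the arms in capitals:
Mir7-1: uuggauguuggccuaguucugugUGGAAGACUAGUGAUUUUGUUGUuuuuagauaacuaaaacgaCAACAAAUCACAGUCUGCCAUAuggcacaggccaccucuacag
Mir7-2: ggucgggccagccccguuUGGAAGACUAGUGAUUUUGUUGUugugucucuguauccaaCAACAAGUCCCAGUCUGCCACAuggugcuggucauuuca

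Of the other hairpins, Mir128-1 lies in an intron of R3hdm1 (chr1:128202361-128202430, plus strand) and Mir128-2 in an intron of Arpp21, a gene of neurons (chr9:112118636-112118711, minus strand). Mir218-1 and Mir218-2 lie in introns of Slit2 and Slit3 (chr5:48223942-48224051 and chr11:35616816-35616925, both plus strand), which encode secreted guidance proteins. The miR-124 hairpins are Mir124a-1 (chr14:64590657-64590741), Mir124a-2 (chr3:17795662-17795770) and Mir124a-3 (chr2:180894040-180894107), all on the plus strand. The first and second overlap exons of the lincRNA genes Mir124a-1hg and Mir124-2hg.

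The db/+ library held 25915732 microRNA counts and the db/db library 24295112. Values are given as CPM, counts per 1000000 microRNA counts of the library, not divided by length because a read spans the whole mature form. Where a form had 0 counts, the limit set by 3 counts was 0.116 CPM for db/+ and 0.123 CPM for db/db. Smooth muscle markers were present in both libraries, with the 4 forms of miR-143 and miR-145a at 1656 and 1567 CPM in sum. The 3 mesenchymal markers summed to more, 10351.5 and 7539 CPM, and so did the 6 skeletal and cardiac muscle markers, with 2473 and 2765 CPM, nearly all of it on miR-206-3p and 3 of the 6 at 0 in both. All intervals are exact 95% intervals for counting error only, since reads are PCR copies without molecular identifiers. In cultured cells a library cannot tell apart fewer cells of a type and less RNA per cell.

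All 7 were detected in both libraries, at levels from 1.08 to 227 CPM in db/+ and from 0.453 to 199 CPM in db/db. Together they summed to 7831 counts in the db/+ library, or 302 CPM (0.0302% of it), and to 6091 in the db/db library, or 251 CPM (0.0251%). Most of this was miR-128-3p, with 75.3% of the 7831 counts and 79.3% of the 6091. The ratio of the sums, db/db over db/+, was 0.830 (0.802 to 0.858), and it was 0.695 (0.647 to 0.746) without miR-128-3p, so the sum mainly describes that 1 microRNA.

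**Figure D1:**
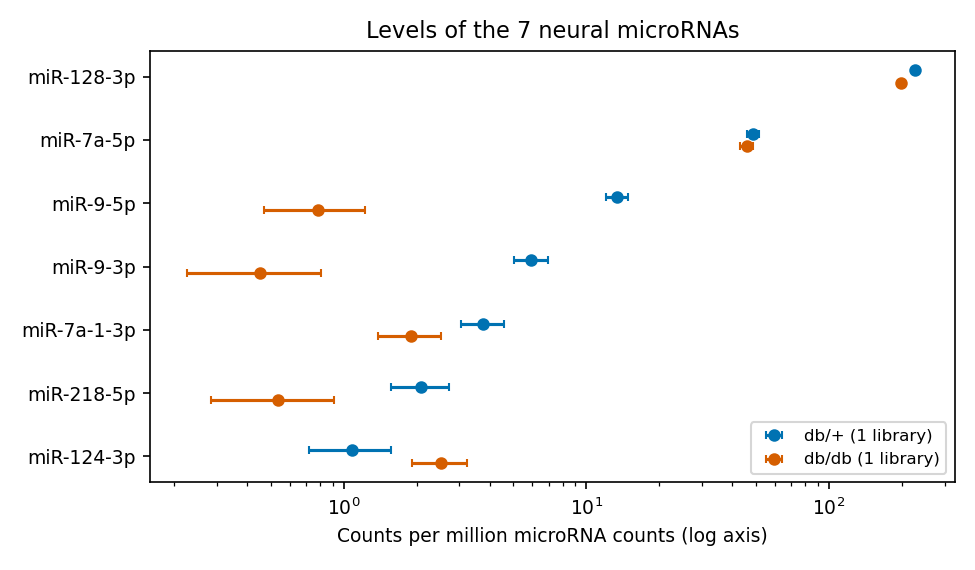
Level of each of the 7 microRNAs in CPM (log axis) in the db/+ and db/db libraries (1 each), with exact Poisson 95% counting intervals. For each of the 2 most abundant, miR-128-3p and miR-7a-5p, the points of the 2 libraries lie close to each other, while both arms of miR-9 and miR-218-5p lie far lower in db/db and miR-124-3p lies higher.

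The neural progenitor microRNA miR-9 had the largest difference of the 7. The 5p arm, miR-9-5p, was counted 347 times in db/+ against 19 times in db/db (13.4 against 0.782 CPM), and miR-9-3p 154 against 11 times (5.94 against 0.453 CPM). Both arms were thus above the count-of-0 limit in each library, and the level in db/db was 17.1-fold lower (10.8 to 28.8) for the 5p arm and 13.1-fold lower (7.13 to 26.8) for the 3p arm. By abundance the 5p arm stood at rank 188 of the db/+ library and 412 of the db/db library, and the 3p arm at 247 and 477. The arms share their hairpins, so they are not independent measurements of the difference.

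The motor neuron microRNA miR-218-5p was the other member at least 2-fold lower in db/db. It was counted 54 times in db/+ against 13 times in db/db (2.08 against 0.535 CPM), which gives a ratio of 0.257 (0.129 to 0.477). Both values are low, and the upper end of the interval lies close to the 2-fold limit of 0.5. The passenger strand of Mir218-1, the hairpin in Slit2, had 7 and 2 counts, and that of Mir218-2, in Slit3, had 0 in both libraries.

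The neuronal microRNA miR-124-3p differed in the opposite direction. It was counted 28 times in db/+ against 61 times in db/db (1.08 against 2.51 CPM), which gives a ratio of 2.32 with an interval, 1.46 to 3.78, that includes 2. It was the least abundant of the 7 in db/+ and the third in db/db. Its other arm, miR-124-5p, had 0 counts in both libraries.

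The most abundant members differed little. The neuronal miR-128-3p was counted 5893 times in db/+ against 4829 times in db/db (227 against 199 CPM), a ratio of 0.874 (0.841 to 0.908), and stood at rank 66 and 70. Counts of miR-7a-5p were 1258 against 1112 (48.5 against 45.8 CPM), a ratio of 0.943 (0.869 to 1.02), at rank 112 in both. Under other scalings its ratio was 1.002 with edgeR TMM and with the deposited TMM reads, 1.004 with DESeq2 and 1.008 with upper-quartile factors. It was 0.982 without the 10 most abundant microRNAs, so its side of 1 depended on the scaling. The passenger strand miR-7a-1-3p lay just outside the 2-fold limit, with 97 against 46 counts (3.74 against 1.89 CPM), a ratio of 0.506 (0.348 to 0.726).

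The size rule called a microRNA lower or higher at a ratio of at most 0.5 or at least 2, among the 356 microRNAs that reached 50 counts in 1 or both libraries. All 7 reached that floor. Of them 3 were called lower (miR-9-5p, miR-9-3p and miR-218-5p), where 13.5% of all 356 were, and 1 was called higher (miR-124-3p), where 4.49% were. At a floor of 100 counts or a limit of 4-fold, miR-218-5p and miR-124-3p were no longer called. Large ratios were more common at low counts: among the 180 microRNAs whose higher library had 50 or more but under 500 counts, the range that holds 5 of the 7 and all 4 that were called, 18.3% were called lower and 6.11% higher. Among the 176 with 500 or more, which hold miR-128-3p and miR-7a-5p, 8.52% were called lower and 2.84% higher. The limit of 500 was chosen after the values were seen. The median log2 ratio of the 7 was -0.98, against -0.14 over the 356. With counts scaled to each library's total, 6 of the 7 ratios were below 1, against 57.0% of the 356. Counting intervals excluded 1 for 6 of the 7, against 75.8% of the 356.

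In the order of all 356 ratios, miR-9-5p was the second lowest, miR-9-3p the fifth and miR-218-5p the eleventh, and miR-124-3p was the thirteenth highest. A ratio of at most 0.1 was found for 5 of the 356 (1.40%), and the arms of miR-9 were 2 of these 5. The other microRNAs with the ratios nearest to miR-9-5p on the log2 scale were miR-217-5p (151 and 8 counts), miR-196a-5p (1273 and 72) and miR-199b-5p (87 and 6). The nearest to miR-9-3p were miR-199b-5p, miR-196a-5p and miR-9-5p. The nearest to miR-124-3p were miR-668-3p, miR-351-5p and miR-148a-3p, and the nearest to miR-218-5p were miR-146b-5p, miR-669l-5p and miR-3095-3p. Such likeness rests on 1 ratio over 2 libraries.

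**Figure D2:**
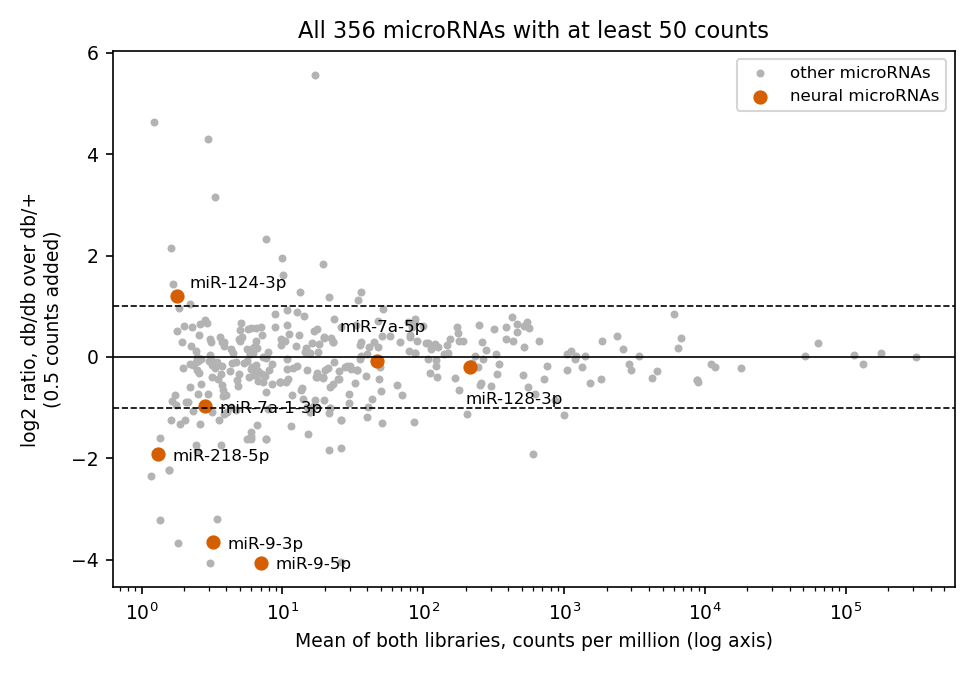
Log2 ratio of db/db over db/+ (0.5 counts added to each library) against the mean CPM of both libraries (log axis) for the 356 microRNAs that reached 50 counts in 1 or both libraries, with the 7 neural microRNAs in orange and dashed lines at 2-fold. The arms of miR-9 lie among the lowest points at log2 ratios of -4.06 and -3.65, while miR-128-3p (-0.19) and miR-7a-5p (-0.08) lie near 0.

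Ratios between members within 1 library do not depend on how the libraries were scaled. For every 1000 counts of miR-128-3p there were 58.9 of miR-9-5p in db/+ and 3.93 in db/db. For miR-218-5p the same measure was 9.16 and 2.69, and for miR-124-3p 4.75 and 12.6. Against this, miR-7a-5p had 213 and 230 for every 1000 of miR-128-3p, so the relation between the 2 most abundant members was nearly the same in both libraries. Set against miR-124-3p, the only member called higher, miR-9-5p was counted 12.4 times as often within db/+ (8.42 to 18.9). Within db/db it was counted 0.311 times as often (0.176 to 0.529). This pair does not stand for progenitor against neuronal microRNAs in general. The db/db over db/+ ratio of the neuronal miR-128-3p was 0.874, and that of miR-138-5p, under the floor, was 0.762 (0.437 to 1.31). The neuronal miR-137-3p had 2 and 0 counts.

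The order of the 7 levels differed between the libraries accordingly. In db/+ it was miR-128-3p, miR-7a-5p, miR-9-5p, miR-9-3p, miR-7a-1-3p, miR-218-5p and miR-124-3p, and each step was larger than counting error. In db/db it was miR-128-3p, miR-7a-5p, miR-124-3p, miR-7a-1-3p, miR-9-5p, miR-218-5p and miR-9-3p. There, counting error did not separate miR-124-3p from miR-7a-1-3p (61 and 46 counts), miR-9-5p from miR-218-5p (19 and 13) or miR-218-5p from miR-9-3p (13 and 11). Ligation and amplification can favour some sequences over others, so an order of levels between microRNAs is less certain than a ratio of 1 microRNA between libraries.

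Passenger strands, where they are counted, can name a hairpin when the main arm cannot. The strand of Mir7-1, miR-7a-1-3p, had 97 and 46 counts, whereas that of Mir7-2, miR-7a-2-3p, had 0 in both libraries. The passenger form of Mir7b, the third hairpin of the family, also had 0, and its main arm miR-7b-5p, which has the same seed as miR-7a-5p and differs from it by A10U (miR-7a-5p base first) and 1 more base at the 3′ end, was counted 2 times in db/+ and 0 times in db/db. Every count that tells miR-7a hairpins apart was therefore on Mir7-1. Passenger strands are mostly degraded, so 0 counts of miR-7a-2-3p do not show that Mir7-2 gave no miR-7a-5p. The passenger forms of miR-128 were nearly absent, with 0 and 2 counts for miR-128-1-5p and 0 in both for miR-128-2-5p, so the counts did not show which hairpin gave miR-128-3p.

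Arm use was measured as the share of a family's counts on 5p forms. For miR-9 the db/+ library gave 69.3% (65.0 to 73.3) of 501 counts, and the db/db library 63.3% (43.9 to 80.1) of 30, so both arms were lower in db/db and a change in their balance was not detectable at this depth. For miR-7a it was 92.8% (91.3 to 94.2) of 1355 counts and 96.03% (94.7 to 97.1) of 1158, with intervals that do not overlap. How often this occurs among other families was not measured. For miR-218 it was 88.5% of 61 counts and 86.7% of 15, with overlapping intervals. The miR-128 counts were on the 3p arm in 5893 of 5893 and 4829 of 4831 cases.

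**Figure D3:**
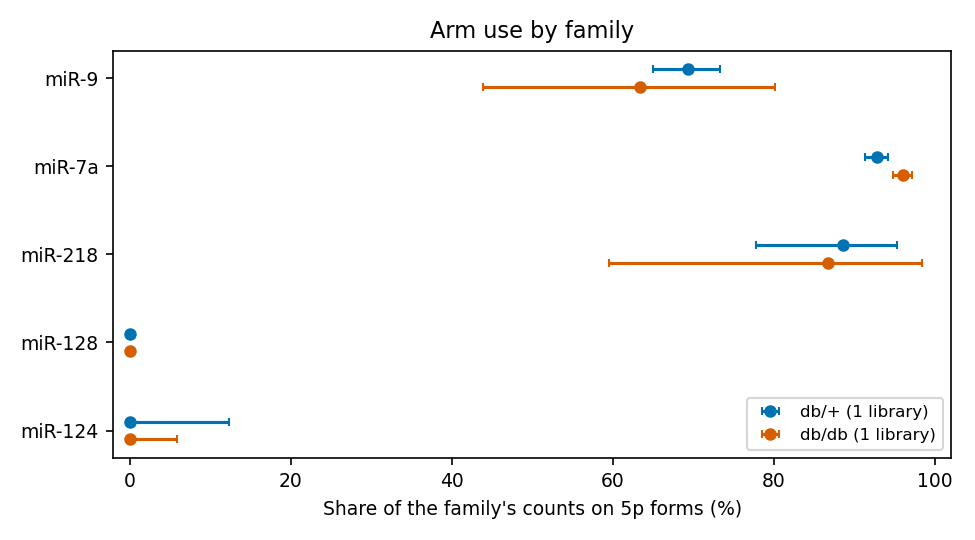
Share of each family's counts on its 5p forms (%), in the db/+ and db/db libraries (1 each), with exact binomial 95% intervals. The miR-9, miR-7a and miR-218 families lie on the 5p side and miR-128 and miR-124 at or near 0. The miR-7a intervals do not overlap between libraries. Those of the other families overlap, but miR-9 and miR-218 had only 30 and 15 counts in db/db, and miR-124 only 28 in db/+. At such counts a shift of the size seen for miR-7a could not be detected, so the figure does not set miR-7a apart from these families. How often intervals fail to overlap among further families was not measured.

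Among other microRNAs best known from neurons or glia, those that reached 50 counts had no ratio as low as those of miR-9 and miR-218-5p. Of 51 further names, 22 had 0 counts in both libraries, among them both arms of the neuronal miR-153 and of miR-488, and 8 reached 50 counts. None of these 8 was called lower or higher by the 2-fold rule (18.0% of all 356 were called either way). Of the 8, 6 had ratios above 1 and 2 below, and their median log2 ratio was 0.44, on the other side of 0 from that of the 7. Among the 6, miR-183-5p, miR-183-3p, miR-182-5p and miR-96-5p come from 1 cluster, and the 7 hold both arms of miR-9 and of miR-7a. Such forms are not independent, so neither median rests on separate members. The largest ratios of the 8 were 1.85 (1.57 to 2.19) for miR-183-5p and 1.69 (1.59 to 1.79) for miR-182-5p, which are known from sensory cells. The lowest were 0.595 (0.440 to 0.800) for miR-344d-3p and 0.761 (0.664 to 0.873) for miR-598-3p.

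The list of 8 neuronal markers summed to 249 against 204 CPM, of which miR-128-3p gave 227 and 199. It overlaps with the 7: miR-128-3p, miR-124-3p and both arms of miR-9 are on both lists, although miR-9 is called a progenitor microRNA above. The sum is therefore not a separate measure of neuronal cells. The markers other than miR-128-3p were rarer. Beside the 28 and 61 counts of miR-124-3p, miR-137-3p had 2 and 0, miR-138-5p 35 and 25, and miR-124-5p and miR-153-3p 0 in both. The rest of the list was miR-9, given above, which made up most of it beside miR-128-3p in db/+. Of the oligodendrocyte markers, miR-219a-5p had 9 and 6 counts, miR-219a-2-3p 0 and 1 and miR-338-3p 2 and 0. Markers of other cell types also differed between the libraries. The 2 endothelial forms of miR-126a summed to 7 against 71 counts (0.270 against 2.92 CPM), with 58 of the 71 on miR-126a-5p. The 5 epithelial markers summed to 6 and 22 counts (0.232 and 0.906 CPM), though miR-141-3p among them had 2 and 0. The blood markers summed to 0.695 and 0.659 CPM, with 3 of 5 at 0 in both. The part of any such cells in the levels of the 7 was not tested.

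**Figure D4:**
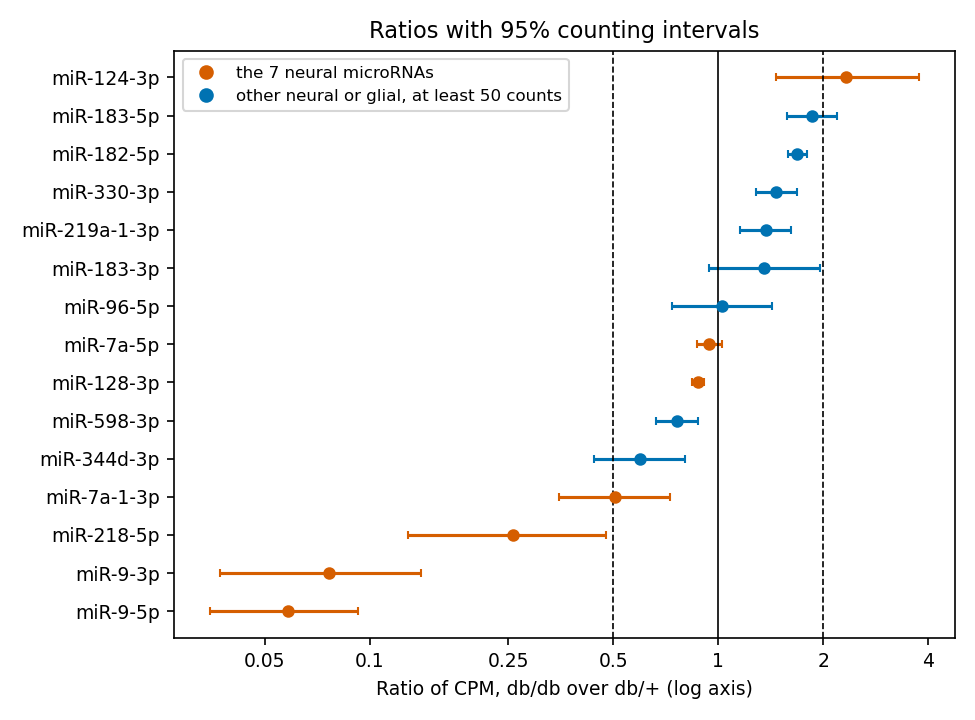
Ratio of CPM, db/db over db/+ (log axis), with exact conditional 95% counting intervals, for the 7 neural microRNAs (orange) and the 8 other neural or glial microRNAs that reached 50 counts in 1 or both libraries (blue). Dashed lines mark ratios of 0.5 and 2. Only orange points lie beyond the dashed lines among the 15 shown, while 18.0% of all 356 microRNAs past the floor do. Members and lists were chosen with earlier results of these data known.

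The seed of miR-128-3p was shared, in a shifted position, with microRNAs of similar or higher counts. Its letters also occur 1 base further in, at bases 3 to 9, in miR-27a-3p and miR-27b-3p. These had 233 and 267 CPM in db/+ and 213 and 293 CPM in db/db, and each had more counts than miR-128-3p in both libraries. The gap was small for miR-27a-3p in db/+ (6039 against 5893 counts), and no counting interval was taken for these pairs. The search used the 6 members with a RefSeq sequence, so not miR-124-3p, and covered 1623 of the 1909 names. Within it, apart from miR-7b-5p, the only other name with the same bases 2 to 8 as 1 of the 6 was miR-7002-3p, with the seed of miR-218-5p and 0 counts in both libraries.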

How the data were processed

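Small RNA libraries of cultured aortic smooth muscle cells were compared, 1 from db/+ and 1 from db/db mice. The deposited tables hold, per the file headers, a raw count and a TMM-normalized value for each mature microRNA. The deposited normalized values are whole numbers and were handled as a score, used in 1 alternative scaling only. Novoalign, edgeR and mm10 are named, with no roles, in the submitters' processing notes. Trimming, mismatch limits and the handling of reads that match several names are not given in the sources used here.

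Counts were scaled to each column's total. Ratios have exact conditional (Clopper-Pearson) 95% intervals, levels exact Poisson and shares exact binomial ones (scipy 1.17.1). With 1 library per group edgeR's quasi-likelihood test could not be fitted, so no p-value was computed and a size rule was used. Log2 ratios had 0.5 counts added. Alternatives were 5 other scalings (edgeR 4.0.16 TMM and upper quartile, DESeq2 1.42.0, the total without the 10 most abundant, and the deposited reads), floors, fold limits and added counts. The functions were tested on simulated data.

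The 7 members and all lists were chosen with earlier results of these data known. Named microRNAs were the members, other forms of their hairpins, 51 neural or glial names (those past the floor, or at least 2-fold apart), cell type markers, and the 3 nearest in log2 ratio to each member past 2-fold. Others were chosen after their values were seen. Of the 24 names past the floor with counts identical to another name, 0 were members. Hairpin positions and host genes are from GENCODE M21 (GRCm38, which is mm10), and sequences from RefSeq (GRCm38.p6), counted from 1.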

Additional observations from a re-analysis of the deposited data

How the results depend on the processing

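The 5 other scalings had factors of 1.04 to 1.07 on the ratios (with the deposited reads, rounding moved low counts further, as for miR-9-3p, from a ratio of 0.0762 to 0.0828), and under each of the 5 the size rule called 3 members lower and 1 higher. The ratio of the summed members lay above its counting interval (0.802 to 0.858) under all 5. It was 0.8816 with edgeR TMM and the deposited TMM reads, 0.8833 with DESeq2, 0.8874 with upper-quartile factors and 0.8643 without the 10 most abundant microRNAs. With members left out it was 0.6946 without miR-128-3p and 0.882 without both arms of miR-9 (both chosen after the values were seen). The number called higher was 0 at a floor of 100 counts and 0 at 4-fold, because miR-124-3p had 61 counts and a ratio of 2.32. The number called lower was 2 at both of these settings, since miR-218-5p had 54 counts and a ratio of 0.257, and 4 at 1.5-fold. The number of other forms and relatives at least 2-fold apart, 0 at the floor of 50, was 1 at a floor of 10, 18 with no floor (each with at most 12 counts in a library) and 3 at 1.5-fold. Arm shares could be given for 5 families at a floor of 10 counts over both arms in each library, against 2 at 50. For single members, the ratio of miR-128-3p left its counting interval under all 5 scalings (0.911 to 0.935) and the other 44 alternative values stayed inside. Depth limits miR-9 and miR-218-5p in db/db, where 1 count is 0.0412 CPM. No paired analysis was possible because there is only 1 library of each kind, and for the same reason none could be left out.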

Other observations

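Of the neural or glial names, all 4 forms of the sensory-cell cluster of miR-183, miR-96 and miR-182 that reached 50 counts had ratios above 1, while 57.0% of all 356 microRNAs past that floor had ratios below 1. Forms of 1 cluster are not independent. They were miR-182-5p with 1675 counts in db/+ and 2648 in db/db, miR-183-5p with 232 and 403, miR-183-3p with 56 and 71, and miR-96-5p with 78 and 75. The intervals of the last pair, 0.939 to 1.96 and 0.737 to 1.43, include 1, and the ratio of miR-96-5p, 1.03, is the nearest to 1.

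The glial miR-219 forms were uneven. The 3p form miR-219a-1-3p had 245 and 314 counts, while miR-219a-5p, the form known from oligodendrocytes, had 9 and 6, and miR-219c-5p had 21 and 39. Among names under the floor, miR-344-3p had 12 and 2 counts.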
